A study of Homo sapiens with 16 samples.

Results

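The genes of the cyclin-dependent kinase (CDK) inhibitors were followed in 4 established human lines of T-cell acute lymphoblastic leukaemia (T-ALL): CEM, CUTL1, DND41 and Jurkat. Of 6 genes chosen by name, 5 had probe sets under their own symbol on the array: CDKN1A, CDKN1B, CDKN1C, CDKN2A and CDKN2D. They held 12 of 54675 probe sets and 5 of 19775 named genes, and 9 of the 12 probe sets were bright enough to be tested. No probe set named CDKN2C, alone or with other symbols, so CDKN2C was not analysed here. Each line was given DMSO, the vehicle, or 1 uM PD-0332991 for 15 h, with 2 arrays in each of the 8 groups and 16 in all. PD-0332991 is palbociclib, an inhibitor of CDK4 and CDK6. The labels give no genetic change for any group, and each line stands for a single leukaemia.

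Levels are log2 array intensities, and a level of 4.88, the median of all values, served as the threshold of brightness. Array medians were 28.5 to 31.2 on the linear scale, and replicate arrays correlated at r of 0.99 to 0.997. The 12 T-lineage markers with a probe set lay at 6.89 to 14.3 in every group, above the threshold. Of 5 myeloid markers 4 were below it in all groups, and so were 2 of 5 B-cell markers, 1 of 3 erythroid, 2 of 5 epithelial, 3 of 6 fibroblast and endothelial and 2 of 4 NK markers. Whether replicate arrays came from separate cultures is not labelled, so each p-value reflects the spread of these arrays alone, part of which may be technical. With 2 arrays a group the precision is limited.

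CDK inhibitors fall into a pair of families. The Cip/Kip proteins p21 (CDKN1A), p27 (CDKN1B) and p57 (CDKN1C) bind whole cyclin-CDK complexes, block CDK2 with cyclin E or A, and can also help assemble CDK4 and CDK6 with D-type cyclins. The INK4 proteins, among them p16 (CDKN2A) and p19 (CDKN2D), bind CDK4 and CDK6 alone and weaken their binding to D-type cyclins; PD-0332991 blocks the same kinases at their ATP site. CDKN2A also encodes ARF from another first exon, and ARF shields p53 from MDM2. Loss of CDKN2A on the short arm of chromosome 9 is among the most frequent lesions of T-ALL. p27 is regulated mostly by protein turnover, which an expression array does not measure.

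The promoters of CDKN1A, CDKN2A and CDKN2D, to which the results below refer most, are shown here, and none is shown for CDKN1B or CDKN1C. Each is the run of 250 bases before a RefSeq transcript start (GRCh38.p14), 5′ to 3′ on the gene's strand, and capitals mark GC boxes (GGGCGG on either strand), a word bound by SP1-type factors. CDKN2A has an outer start, for ARF, and an inner start, for p16, and the probe sets were not assigned to either.
CDKN1A, chr6:36678464-36678713, plus strand: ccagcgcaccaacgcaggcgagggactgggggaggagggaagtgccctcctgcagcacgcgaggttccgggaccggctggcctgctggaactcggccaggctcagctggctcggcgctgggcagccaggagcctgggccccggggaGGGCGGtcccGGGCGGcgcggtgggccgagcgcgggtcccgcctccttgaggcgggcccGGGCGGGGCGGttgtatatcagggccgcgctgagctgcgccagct
CDKN2A outer start, chr9:21995325-21995574, minus strand: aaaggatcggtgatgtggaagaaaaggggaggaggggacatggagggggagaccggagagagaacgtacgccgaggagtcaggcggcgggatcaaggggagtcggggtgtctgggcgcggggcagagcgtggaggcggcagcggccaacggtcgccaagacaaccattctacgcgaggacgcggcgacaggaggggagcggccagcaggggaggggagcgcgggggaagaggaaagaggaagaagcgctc
CDKN2A inner start, chr9:21974858-21975107, minus strand: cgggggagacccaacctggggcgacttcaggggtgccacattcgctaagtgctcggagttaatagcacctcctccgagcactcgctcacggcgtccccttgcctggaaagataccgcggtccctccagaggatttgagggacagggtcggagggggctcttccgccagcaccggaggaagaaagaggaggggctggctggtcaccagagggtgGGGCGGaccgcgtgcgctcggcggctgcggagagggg
CDKN2D, chr19:10568980-10569229, minus strand: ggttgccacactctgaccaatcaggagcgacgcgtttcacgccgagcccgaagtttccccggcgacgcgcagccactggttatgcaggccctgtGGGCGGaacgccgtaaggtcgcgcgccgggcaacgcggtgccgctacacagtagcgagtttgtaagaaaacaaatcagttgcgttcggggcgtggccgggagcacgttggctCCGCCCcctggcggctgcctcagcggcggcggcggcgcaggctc
The CDKN1A promoter held 4 GC boxes, the inner CDKN2A start 1, the outer start 0 and CDKN2D 2. A GC box stood in 42.6% of 35116 promoter windows of this length. The E2F words TTTCCCGC, TTTCGCGC, TTTGCCGC and TTTGGCGC, searched on both strands, stood in 2.79% of the windows and in none of these 4. A match describes letters only, and factor binding was not measured.

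The first question was how much of each inhibitor the untreated lines carried. The DMSO level differed between lines for 7 of the 9 tested probe sets by an F test in limma, where 63.6% of all 29837 tested probe sets did. Of the 9, 6 were bright enough in some lines only (the tested CDKN1C and CDKN2A probe sets). Keeping a probe set through the lines where it is high favours a difference between lines, so nothing is read from this count. Those 6 are described by their levels, and CDKN2A is tested in DMSO only between lines that are both high or both low. The 3 kept in every line, of CDKN1A, CDKN1B and CDKN2D, are tested below. Between single pairs of lines the shares called were 36.9% for CEM and CUTL1, 37.5% for CEM and DND41, 40.3% for CEM and Jurkat, 37.1% for CUTL1 and DND41, 44.1% for CUTL1 and Jurkat and 40.2% for DND41 and Jurkat. Each probe set has a brightness of its own, so levels are compared between lines and not between genes.

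**Figure D1:**
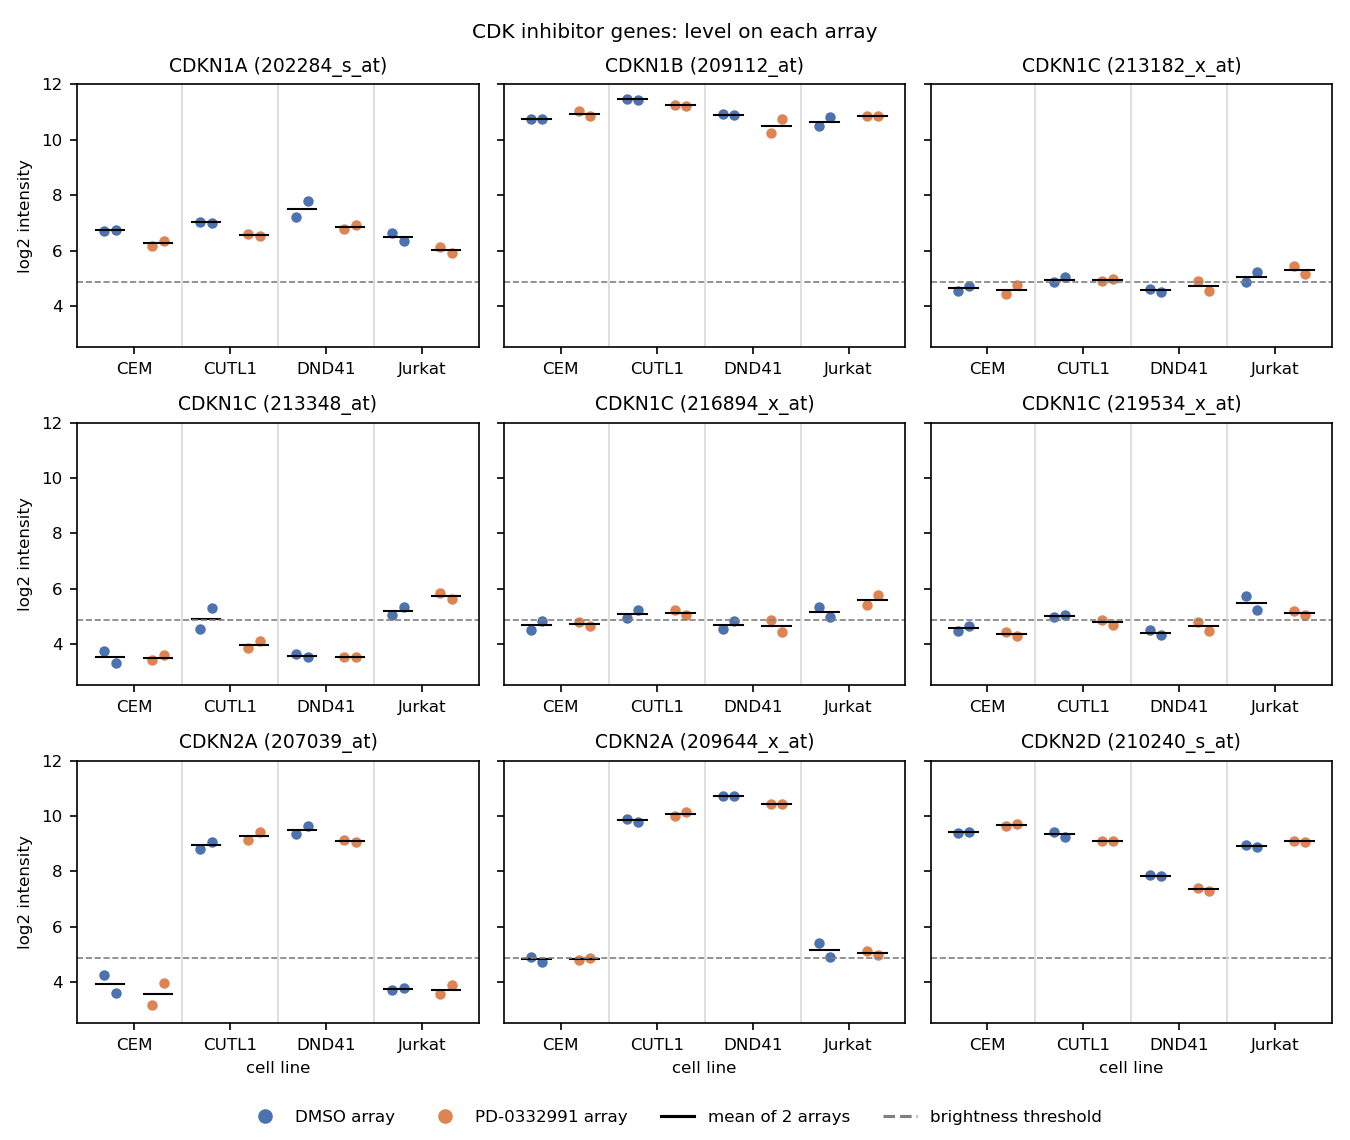
Level of the 9 tested probe sets of the CDK inhibitor genes on each of the 16 arrays. The vertical axis is log2 intensity, points are arrays, black bars are means of 2 arrays, and the dashed line is the brightness threshold of 4.88. CDKN2A splits the lines into CUTL1 and DND41, at 8.82 and above, and CEM and Jurkat, at 5.42 and below, while CDKN2D is lowest in DND41.

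CDKN2A, the gene of p16 and ARF, gave the widest spread between lines of any inhibitor gene. By its brighter probe set (209644_x_at) the DMSO arrays read 9.89 and 9.79 in CUTL1, 10.73 and 10.73 in DND41, 4.91 and 4.71 in CEM, and 5.42 and 4.91 in Jurkat. The arrays with PD-0332991 read 10.00 and 10.14 in CUTL1, 10.44 and 10.44 in DND41, 4.80 and 4.87 in CEM, and 5.13 and 4.97 in Jurkat. CUTL1 and DND41 were thus high on all their arrays and CEM and Jurkat lay at or near the threshold, with no overlap. Set against the threshold where an array fell below it, DND41 was at least 56.9-fold above CEM and CUTL1 at least 30.7-fold. Against Jurkat, with 1 DMSO array close to the threshold, the differences were at least 47.1-fold for DND41 and at least 25.4-fold for CUTL1. The second probe set (207039_at) gave the same split, with CEM and Jurkat below the threshold on all 8 arrays, CUTL1 at least 16.7-fold above both and DND41 at least 24.4-fold. Differences of 16-fold or more in DMSO were found for 0.714% of tested probe sets between CEM and CUTL1, 0.654% between CEM and DND41, 0.788% between CUTL1 and Jurkat and 0.821% between DND41 and Jurkat.

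By 209644_x_at the order was DND41, CUTL1, Jurkat and CEM. DND41 stood 1.85-fold above CUTL1 by 209644_x_at (0.89 on the log2 scale, SE 0.141, limma adjusted p = 0.000379), but by 207039_at the difference of 0.54 was not called (adjusted p = 0.121). Jurkat and CEM were not told apart by 209644_x_at (0.36, adjusted p = 0.0656) or by 207039_at (adjusted p = 0.604). Both lines lay near or below the threshold, where a difference is not measured reliably. The 2 probe sets followed each other over the 16 arrays at r of 0.993, a value set by the split between lines. The remaining probe set, 211156_at, was below the threshold on every array, at 3.74 to 4.42.

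No change of CDKN2A with PD-0332991 was called in any line. By 209644_x_at the change was 0.23 in CUTL1 (SE 0.141, 95% confidence interval -0.08 to 0.54, limma adjusted p = 0.308) and -0.29 in DND41 (interval -0.60 to 0.02, adjusted p = 0.168). By 207039_at the changes were 0.33 and -0.39, with intervals from -0.23 to 0.89 and from -0.95 to 0.17. In CEM and Jurkat the level was too near the threshold for a change to be measured reliably.

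MTAP, a gene of methionine salvage and the next protein-coding gene to CDKN2A in RefSeq order, split the lines in the same way. Its probe set 231984_at averaged 7.87 in CUTL1 and 7.83 in DND41 with DMSO, against 4.19 in CEM and 4.01 in Jurkat, so CUTL1 was at least 7.92-fold and DND41 at least 7.71-fold above both. Of the 6 MTAP probe sets 4 showed this split, 211364_at was at 5.21 to 5.70 in all groups, and 217134_at was below the threshold in all. Over the 16 arrays these 4 correlated with the CDKN2A probe sets at r of 0.94 to 0.986, again through the difference between lines. CDKN2B, the INK4 gene on the other side, was below the threshold in all 8 groups by both its probe sets, at group means of 2.54 to 4.21. Its probe sets thus did not show the split seen for CDKN2A, though a dim probe set does not show that a transcript is absent. Gene copy number was not measured.

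KLHL9, a ubiquitin ligase adaptor gene a few genes beyond MTAP, was bright in CEM and dim in Jurkat, so the lines with low CDKN2A differed there. By 213233_s_at its DMSO level was 9.27 in CEM, 10.1 in CUTL1, 9.74 in DND41 and 3.81 in Jurkat. CEM stood at least 21-fold, CUTL1 at least 36.9-fold and DND41 at least 29-fold above Jurkat. A second bright probe set (213117_at) gave 7.46, 8.44, 8.13 and 3.65. On the other side of CDKN2A, the nearest tested gene, CAAP1, was bright in every line, at 9.42 in CEM and 10.2 in Jurkat.

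**Figure D2:**
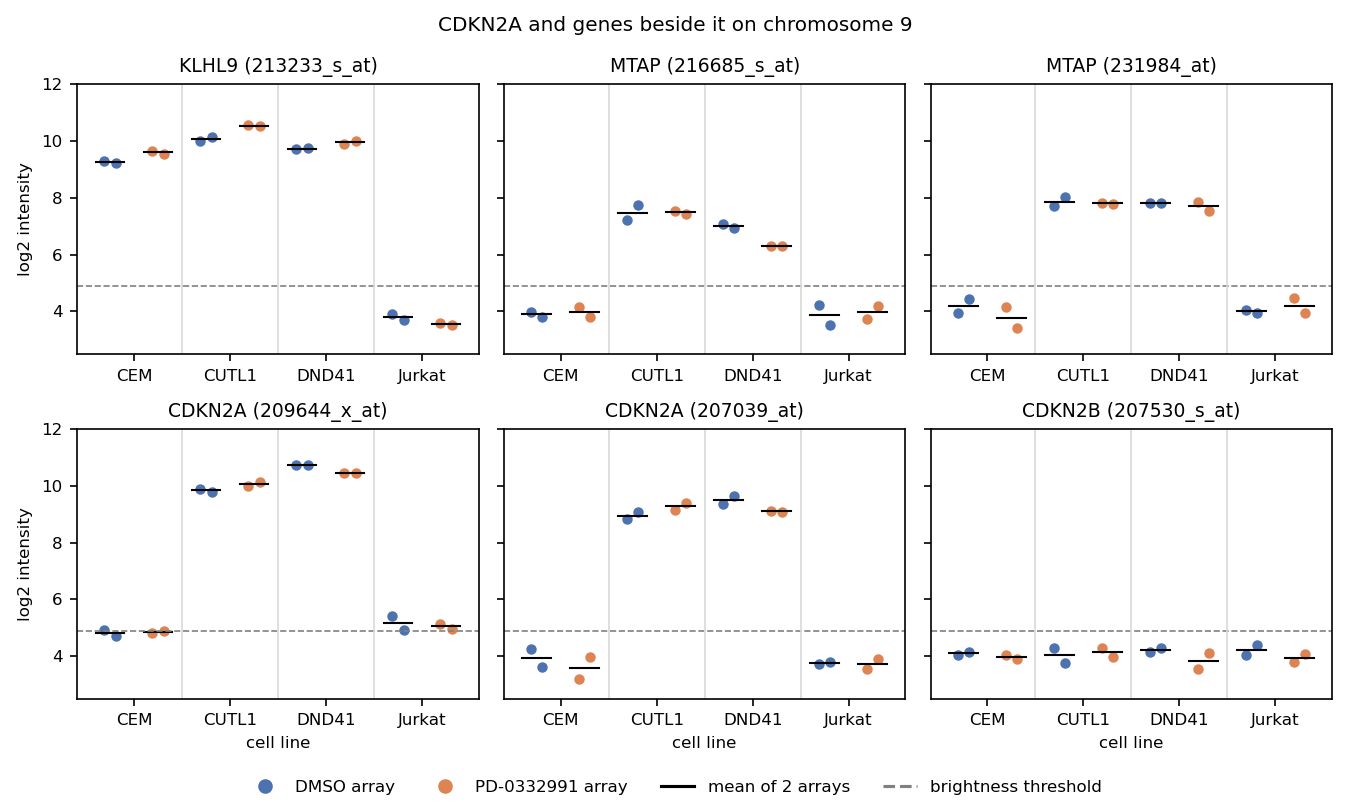
Level of CDKN2A, its neighbours MTAP and CDKN2B, and KLHL9 on each of the 16 arrays, as log2 intensity, with black bars for the mean of 2 arrays and a dashed line at the threshold of 4.88. CDKN2A and MTAP are high in CUTL1 and DND41 and low in CEM and Jurkat, KLHL9 is low in Jurkat alone among the 4 lines, and CDKN2B is below the threshold in all.

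MTAP also changed with PD-0332991 in DND41 by some of its probe sets. It fell by 1.47 by 204956_at (SE 0.144, limma adjusted p = 5.62e-05), from a mean of 7.37 to 5.90, and by 0.52 by 211363_s_at (adjusted p = 0.0479). It stood at -0.72 by 216685_s_at (adjusted p = 0.0502), at -0.12 by 231984_at (adjusted p = 0.765) and at 0.31 by 211364_at (adjusted p = 0.169). The probe sets thus disagreed on whether MTAP fell in this line. None of the 5 tested MTAP probe sets was called in CUTL1, the other line with high MTAP levels.

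The response to PD-0332991 was then asked of each line, since CDK4 and CDK6 inhibition might leave, raise or lower the cell's own inhibitors. With 9 probe sets, the counts are given beside the shares over all probe sets and nothing particular to the inhibitors is read from them. In CEM 1 of 9 was higher and 0 lower, where 19.6% of all tested probe sets were called (11.5% higher, 8.15% lower). In CUTL1 0 were higher and 1 lower against 19.5% called (9.34% higher, 10.1% lower). In DND41 0 were higher and 2 lower against 22.3% called (7.58% higher, 14.7% lower). In Jurkat 0 were called against 18.8% (10.3% higher, 8.52% lower). Averaged over the lines, 0 were higher and 1 lower against 37.9% called (20.4% higher, 17.6% lower). The median change of the 9 was -0.01 in CEM, -0.22 in CUTL1, -0.29 in DND41, 0.17 in Jurkat and -0.07 on average, and that of all tested probe sets was 0.01, 0.04, 0.00, 0.03 and 0.03. The split of all calls in DND41 moved with the scaling: 34% were higher as deposited, 19.7% after median centring, 47.9% after quantile and 42.7% after cyclic loess normalisation.

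**Figure D3:**
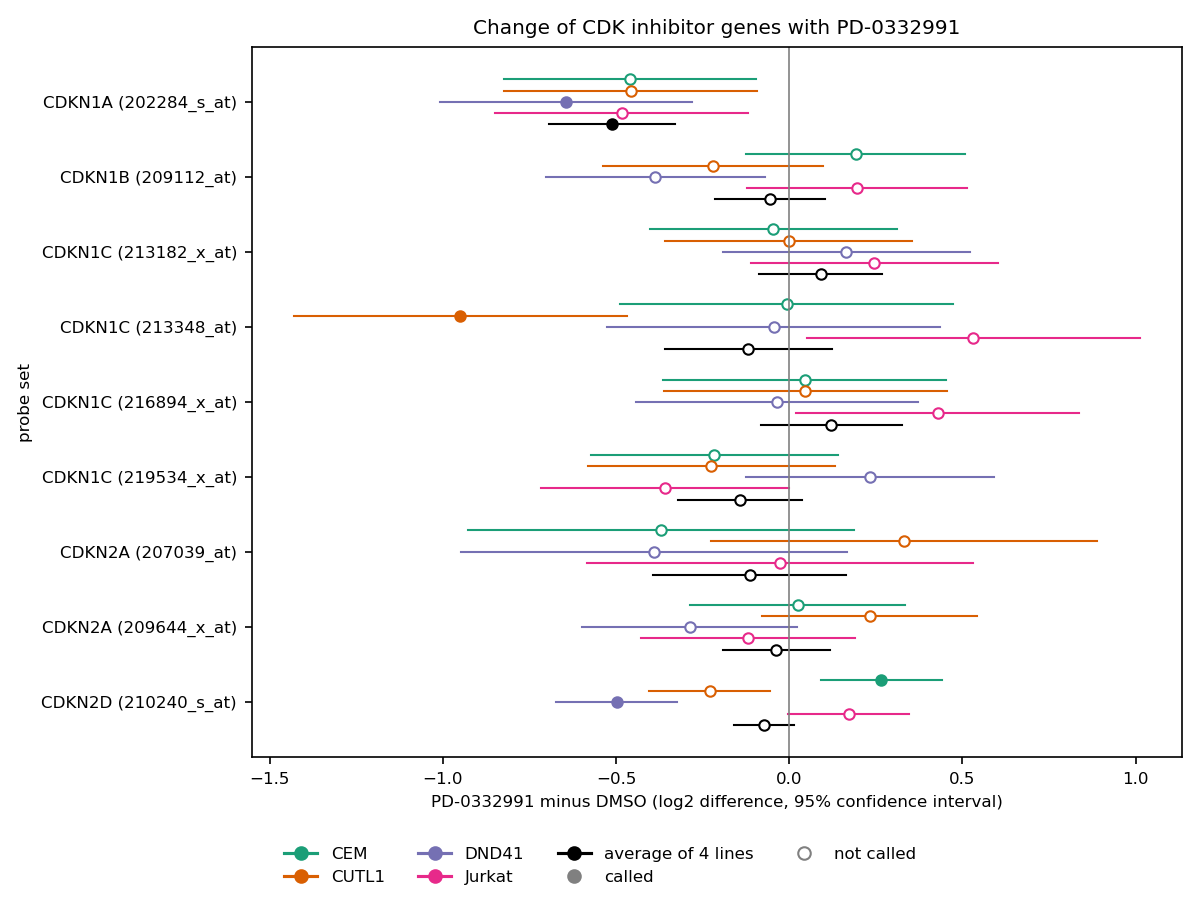
Change with PD-0332991 of each tested probe set, as the log2 difference from DMSO with its 95% confidence interval, in the 4 lines and on average. Filled points were called at a limma adjusted p under 0.05. CDKN1A lies left of 0 in all 4 lines, at -0.46 to -0.64, and CDKN2D lies right of 0 in CEM and Jurkat and left of it in CUTL1 and DND41.

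CDKN1A, the gene of p21 and a classical p53 target, was the inhibitor gene called in the average over the 4 lines. In CEM the DMSO arrays read 6.71 and 6.74 and the PD-0332991 arrays 6.18 and 6.36. In CUTL1 they read 7.04 and 7.01 against 6.60 and 6.54. In DND41 they read 7.20 and 7.78 against 6.76 and 6.93. In Jurkat they read 6.65 and 6.36 against 6.12 and 5.92. In each of the 4 lines both treated arrays lay below both DMSO arrays. On average CDKN1A fell by 0.51 (SE 0.083, interval -0.69 to -0.33, n = 8 arrays per treatment), or 1.43-fold, with a limma adjusted p of 0.000461.

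Taken line by line, the CDKN1A change was -0.46 in CEM (limma adjusted p = 0.0769), -0.46 in CUTL1 (0.08), -0.64 in DND41 (0.0179) and -0.48 in Jurkat (0.0664), each with SE 0.166, so it was called in DND41. That call was lost without the second DMSO array of DND41 (-0.35, adjusted p = 0.146) or without its first PD-0332991 array (-0.56, adjusted p = 0.109), and from the 4 arrays of DND41 alone (0.139). Without the first or the second DMSO array of DND41 the change was called in CEM (0.0231 in both), CUTL1 (0.0229 and 0.0227) and Jurkat (0.0188 and 0.0187). The average was called with any 1 of the 16 arrays left out, at adjusted p-values of 4.6e-05 to 0.00175. The lines were not shown to differ in this change (F test, limma adjusted p = 0.892), and the widest pair, CUTL1 and DND41, differed by 0.19 with an interval from -0.33 to 0.70.

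In DMSO CDKN1A was highest in DND41 (mean 7.49, SD 0.411, n = 2), then CUTL1 (7.03, SD 0.0213), CEM (6.73, SD 0.0194) and Jurkat (6.50, SD 0.208), with an F test adjusted p of 0.00142 in limma. DND41 stood 1.98-fold above Jurkat (adjusted p = 0.000553) and 1.70-fold above CEM (0.00362). DND41 and CUTL1 differed by 0.46 (adjusted p = 0.0465), a call kept in 3 of 16 sets with 1 array left out and lost after quantile normalisation (0.0828). CUTL1 and Jurkat differed by 0.52 (0.024), a call lost without either DMSO array of CUTL1 (0.0898 and 0.0712) or the second of Jurkat (0.162). Neither CEM and CUTL1 (0.189) nor CEM and Jurkat (0.324) were told apart.

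CDKN1B, the gene of p27, was bright on all 16 arrays, from 10.3 to 11.5, and no change was called in any line. Its DMSO arrays read 10.74 and 10.75 in CEM, 11.49 and 11.43 in CUTL1, 10.92 and 10.89 in DND41, and 10.51 and 10.81 in Jurkat. With PD-0332991 they read 11.03 and 10.85, 11.25 and 11.23, 10.26 and 10.77, and 10.87 and 10.84 in the same order. The treated arrays were thus above the DMSO arrays in CEM and Jurkat and below them in CUTL1 and DND41. The changes were 0.19 in CEM, -0.22 in CUTL1, -0.39 in DND41 and 0.20 in Jurkat (SE 0.144 each), with limma adjusted p-values of 0.409, 0.35, 0.0771 and 0.412. The average was -0.05 with an interval from -0.21 to 0.10 (adjusted p = 0.605), and the F test of a difference between lines gave an adjusted p of 0.152. Without the second PD-0332991 array of DND41 the change there was -0.64 and was called (adjusted p = 0.00479). The DND41 change was also called with the stricter filter (0.0457) and with the intensity trend and robust prior (0.0459).

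CUTL1 carried the most CDKN1B with DMSO. It stood 1.64-fold above CEM (limma adjusted p = 0.0022), 1.47-fold above DND41 (0.00948) and 1.75-fold above Jurkat (0.000765). The call against DND41 was lost without the first DMSO array of CUTL1 (0.0558) or the second of DND41 (0.0531). DND41, CEM and Jurkat followed at means of 10.90, 10.75 and 10.66 and were not told apart, with adjusted p-values of 0.206 to 0.668.

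CDKN1C, the gene of the imprinted inhibitor p57, lay around the threshold, so its values are the least certain. Its probe set 213348_at read 4.54 and 5.30 with DMSO in CUTL1 and 5.05 and 5.35 in Jurkat, against 3.73 and 3.30 in CEM and 3.63 and 3.54 in DND41. Jurkat was therefore above the threshold and CEM and DND41 below it on every DMSO array. It was tested through Jurkat alone, and the other 3 tested probe sets through CUTL1 and Jurkat, so no test between lines is given for their DMSO levels. By 219534_x_at Jurkat was highest as well, at 5.73 and 5.24. The fifth, 219533_at, was below the threshold on all arrays.

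With PD-0332991 the CDKN1C probe set 213348_at fell in CUTL1 to 3.84 and 4.10, below the threshold, by 0.95 as measured (SE 0.219, limma adjusted p = 0.0103). The DMSO mean of 4.92 was itself only just above the threshold, and the mean of the 4 CUTL1 arrays was below it, so the size of this fall is not reliable. The call was lost without the second DMSO array of CUTL1 (-0.57, adjusted p = 0.0705) or its first PD-0332991 array (-0.82, adjusted p = 0.085), and from the 4 arrays of CUTL1 alone (0.0861). In Jurkat the same probe set stood at 5.83 and 5.63 with PD-0332991, a change of 0.53 that was not called (adjusted p = 0.123). The CUTL1 change was lower than the Jurkat change by 1.48 (adjusted p = 0.0472), a difference called for 1.2% of all tested probe sets and kept in 1 of 16 sets with 1 array left out. After median centring its limma adjusted p was 0.0647, after quantile normalisation 0.0516 and after cyclic loess 0.0648. The probe set passed the brightness filter through Jurkat alone, and the treated CUTL1 arrays were below the threshold, so this difference is not reliable. The other 3 tested CDKN1C probe sets were not called in any line, and in CUTL1 they stood at 0.00, 0.05 and -0.22.

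CDKN2D, the gene of p19 INK4D, was the one inhibitor gene whose response differed between lines by the F test (limma adjusted p = 0.00707, where 6.18% of all tested probe sets were called). Its probe set 210240_s_at read 9.38 and 9.42 with DMSO and 9.63 and 9.71 with PD-0332991 in CEM, and 8.96 and 8.87 against 9.10 and 9.07 in Jurkat. In CUTL1 it read 9.41 and 9.25 against 9.10 and 9.10, and in DND41 7.85 and 7.84 against 7.41 and 7.28. The treated arrays were above the DMSO arrays in CEM and Jurkat and below them in CUTL1 and DND41, with no overlap in any of the 4.

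CDKN2D fell in DND41 by 0.50 (SE 0.0794, 1.41-fold, limma adjusted p = 0.00144), a call kept with any 1 of the 16 arrays left out and lost from the 4 arrays of DND41 alone (0.0605). It rose in CEM by 0.27 (adjusted p = 0.0373), a call kept in 6 of 16 such sets and lost after quantile (0.0762) or cyclic loess normalisation (0.0872) or without any 1 of the 4 CEM arrays (0.0835 to 0.17). The changes of -0.23 in CUTL1 (adjusted p = 0.0675) and 0.17 in Jurkat (0.172) were not called. Of the 6 pairs of lines 3 were called. The change in CEM was above that in DND41 by 0.76 (adjusted p = 0.0134, 5.77% of all probe sets called) and above that in CUTL1 by 0.49 (0.0463, 2.32% called), and that in Jurkat was above that in DND41 by 0.67 (0.0101, 5.13% called). The other pairs, with 0.938% of all probe sets called for CEM and Jurkat, 3.14% for CUTL1 and DND41 and 1.2% for CUTL1 and Jurkat, were not. CEM against CUTL1 was kept in 3 of 16 sets with 1 array left out and lost after quantile (0.098) or cyclic loess normalisation (0.0794). CEM against DND41 was kept in 13, and lost without the first PD-0332991 array of CEM (0.0599) or either DMSO array of DND41 (0.0534 and 0.0517). The average of -0.07 had an interval from -0.16 to 0.01 and was not called (adjusted p = 0.183).

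The level of 18S ribosomal RNA moved the same way as CDKN2D, and as the uncalled changes of CDKN1B, in each line. It went from 12.9 to 13.1 in CEM, from 13.2 to 12.7 in CUTL1, from 13.2 to 12.6 in DND41 and from 13.386 to 13.430 in Jurkat. For the treatment change averaged over the 4 lines, an exact permutation within lines gave p = 0.177 (two-sided, 1296 assignments, adjusted over 3 quality measures 0.531). Opposite shifts partly cancel in that average, so this p does not test the pattern by line. The part of the 18S level in these changes was not tested. Under each of 3 other scalings CDKN2D kept its direction in all 4 lines, at -0.38 to -0.57 in DND41 and 0.24 to 0.30 in CEM.

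In DMSO DND41 had the least CDKN2D, with CEM 2.95-fold, CUTL1 2.80-fold and Jurkat 2.10-fold above it (limma adjusted p-values of 3.18e-08, 4.11e-08 and 7.1e-07). CEM and CUTL1 were not told apart (adjusted p = 0.522), and Jurkat lay 1.40-fold below CEM (0.000432) and 1.33-fold below CUTL1 (0.00119). DND41 was thus the line with the highest CDKN2A and the lowest CDKN2D. The second CDKN2D probe set, 213586_at, was below the threshold on all arrays.

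Transcripts of CDKs and cyclins, which these inhibitors bind, and of pocket proteins were read from a list of 14 genes. On average 3 rose and 8 fell, with a median of -0.50 against 0.04 for all genes tested. Over all genes tested 43.9% were called on average, 24.9% higher and 19% lower. CDK2, the main target of p21 and p27, fell in all 4 lines and by 1.50 on average (SE 0.0483, limma adjusted p = 7.19e-10). Its partners cyclin E1 and cyclin E2 fell by 1.90 (CCNE1, SE 0.0686) and 4.34 (CCNE2, SE 0.103). CDK4 fell by 0.65 (SE 0.0392), while CDK6 rose by 0.25 (SE 0.0447) and the cyclin D3 gene CCND3 by 0.30 (SE 0.0404). CCND2, for cyclin D2, rose in Jurkat by 1.28, from 6.45 to 7.74. In DND41 CCND2 rose by 0.85 as measured, but from 4.25, below the threshold, so the size is not reliable. RB1, the pocket protein that CDK4 and CDK6 phosphorylate, was bright in every group; it fell in DND41 by 0.62 (adjusted p = 0.0071) and stood at -0.10 on average (0.276).

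The list of turnover of p27 and p21 had 14 tested genes, of which 3 rose and 7 fell on average (median -0.08 against 0.04). SKP2 and CKS1B, parts of the ubiquitin ligase that marks p27 for degradation, fell in all 4 lines, by 0.84 (SE 0.0348) and 0.86 (SE 0.0346) on average. PCNA, on which p21 is degraded in S phase, fell by 1.48 (SE 0.0349), and DTL, the substrate receptor for that degradation, by 3.09 (SE 0.04). The limma adjusted p of these 4 genes was 6.71e-09 or lower. All 4 responded differently between lines by the F test, which called 7.57% of genes. The CDKN1B transcript was not called in any line, while SKP2 fell least in DND41 (0.64) and most in CUTL1 (1.16).

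Of 16 tested p53 targets 6 rose and 3 fell on average (median 0.11 against 0.04). TP53INP1 rose by 2.10 (SE 0.108), DDB2, a damage recognition gene, fell by 1.42 (SE 0.0596) and the nuclease gene AEN by 0.58 (SE 0.0423). MDM2, which degrades p53, stood at -0.19 (limma adjusted p = 0.0935) and fell in DND41 by 0.64 (0.0174). On average CDKN1A fell, as did DDB2, AEN and FAS (-0.22) of the list. More genes rose than fell over all genes tested as well (24.9% higher, 19% lower), so nothing is read from these counts. The genes of the list that rose were TP53INP1, ZMAT3 (0.67), MDM4 (0.51), GADD45A (0.44), SESN1 (0.28) and XPC (0.13).

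Of 27 known transcriptional regulators of the inhibitor genes 10 rose and 9 fell on average (median 0.04, as for all genes). FOXO3, which activates CDKN1B, rose by 0.26 (SE 0.0485), and FOXO1 stood at -0.05 (limma adjusted p = 0.736). HES1, a NOTCH1 target that represses CDKN1B, rose by 0.51 (SE 0.053). ID1, an antagonist of the E proteins that activate CDKN1A, fell by 0.45 (SE 0.0576), though in DND41 it stood at 0.16 (0.353), and E2F1, an activator of ARF, fell by 1.15 (SE 0.0668). Of 11 Polycomb genes, whose products repress CDKN2A, 2 rose and 4 fell (median -0.05), among them EZH2 by 1.22 (SE 0.0616), EED by 0.85 (SE 0.0579) and CBX2 by 0.84 (SE 0.041). No change of CDKN2A was called, but in CEM and Jurkat its level was too near the threshold for a change to be measured reliably. Whether these falls bear on CDKN2A was not tested.

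**Figure D4:**
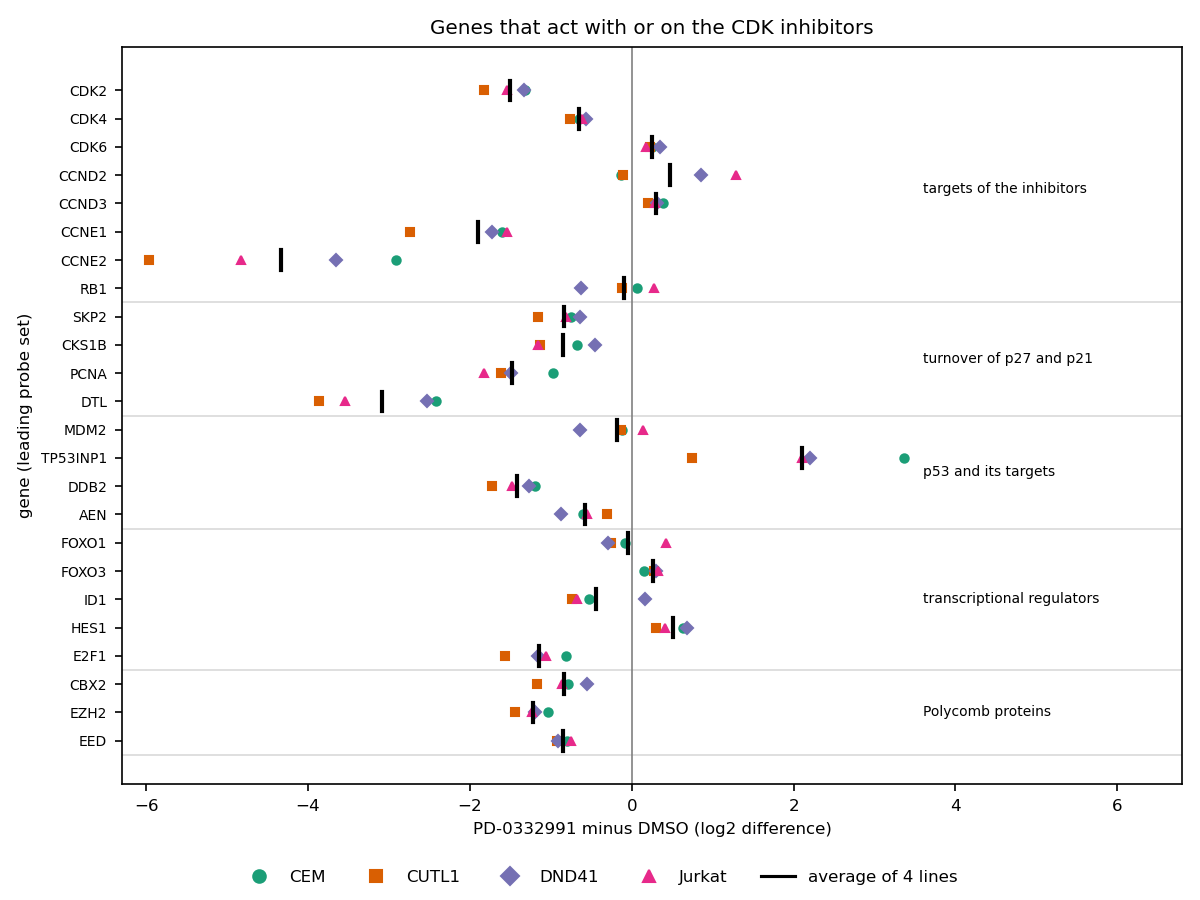
Change with PD-0332991 (log2 difference from DMSO) of named genes that act with or on the CDK inhibitors, by line (symbols) and on average (black bars). CCNE2 and DTL lie farthest left, at averages of -4.34 and -3.09, and TP53INP1 farthest right, at 2.10.

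Of 15 tested chromosomal neighbours of the inhibitor genes 3 rose and 4 fell on average (median -0.01 against 0.04). SRSF3, next to CDKN1A, fell by 0.17 (SE 0.0352), NAP1L4, near CDKN1C, by 0.18 (SE 0.0412) and FAF1, beside CDKN2C, by 0.58 (SE 0.0381) in limma. The fall of SRSF3 was smaller than that of CDKN1A, and the difference was not tested.

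The genes most like each inhibitor gene over the 16 arrays, among 13478 genes, were named by Pearson's r. These values mostly follow the differences between lines. For CDKN1A they were CTU2 (0.931), H1-3 (0.931) and PANK4 (0.928), and for CDKN1B RAP1A (0.974), MORF4L1 (0.962) and CSTF1 (0.955). For CDKN1C, by 216894_x_at, they were TPST1 (0.897), TNK1 (0.892) and COQ6 (0.885). For CDKN2A they were MEST (0.997), LINC00674 (0.995) and ATP6AP1L (0.986), and for CDKN2D STXBP5 (0.979), ITM2A (0.978) and CRIP1 (0.977).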

How the data were processed

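Gene expression was measured on Affymetrix Human Genome U133 Plus 2.0 arrays from amplified RNA. Per the submitters' processing notes, the authors made the deposited intensity values with RMA; the version used is not given in the sources used here. These values are linear, so log2 was taken first, with no pseudocount. The platform annotation named genes: 41097 of 54675 probe sets had 1 symbol, 1801 several and 11777 none. A probe set was tested where its mean over a line's 4 arrays reached 29.5 (4.88 on the log2 scale), which kept 29837. One linear model with 8 group means was fitted with limma 3.58.1 under R 4.3.3 (lmFit, eBayes), with Benjamini-Hochberg adjustment over all tested probe sets; a call is an adjusted p under 0.05, two-sided. A gene outside the inhibitors was read from its brightest probe set. The members and lists were chosen with earlier results of these data known. Members were named by symbol, other genes by the smallest p of a list, by fixed choice or by likeness (the 3 highest r). The script was tested on simulated data. Alternatives covered scaling, filters, variance model, pseudocount, the replicate number as a block and left-out arrays. Deviations of same-numbered arrays correlated at 0.21 in CEM, 0.185 in CUTL1, 0.15 in Jurkat and -0.321 in DND41; since not every value was over 0.1, the numbers were not taken as pairs. Python 3.11.15, pandas 2.3.3 and, for plots, matplotlib 3.10.9 were used. No pair of arrays was identical.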

Additional observations from a re-analysis of the deposited data

Results flagged for a closer look

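The responses of the lines to PD-0332991 differed by a test of the difference itself for some of the genes above. For CDKN2D the F test over the 4 lines gave a limma adjusted p of 0.00707, and its change was higher in CEM than in CUTL1 by 0.49, higher in CEM than in DND41 by 0.76, and the DND41 change minus the Jurkat change was -0.67. For the CDKN1C probe set 213348_at, which passed the brightness filter through Jurkat alone, the CUTL1 change minus the Jurkat change was -1.48. Its F test over the 4 lines was not called (limma adjusted p = 0.0581), the call of this pair was kept in 1 of 16 sets with 1 array left out, and the treated CUTL1 arrays were below the threshold, so this difference is not reliable.

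Among genes that act with or on the inhibitors, the limma F test adjusted p was 0.00589 for CCND2, 0.0105 for CCNE1 and 0.000797 for CCNE2. CCND2 rose in Jurkat. In CEM and CUTL1 it was below the threshold in both groups (3.71 to 4.09), so its changes of -0.13 and -0.11 are not reliable. Its rise in DND41 also began below the threshold, at 4.25, so a difference in response is not shown reliably for CCND2. CCNE2 fell by 5.96 in CUTL1 and by 2.91 in CEM. For the turnover genes the limma F test adjusted p was 0.0337 for SKP2, 0.00381 for CKS1B, 0.00309 for PCNA and 0.00025 for DTL. DTL fell by 3.87 in CUTL1 and by 2.42 in CEM. It was 0.0042 for TP53INP1, which rose by 3.36 in CEM and by 0.75 in CUTL1, 0.0214 for ID1, and 0.0386 for CBX2.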

How the results depend on the processing

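The number of inhibitor probe sets called was recomputed under other settings; the cause of each shift was not tested unless the setting itself shows it. In CEM it went from 1 to 0 with quantile or cyclic loess normalisation, with no filter on dim probe sets, from the line's 4 arrays alone, and with the replicate block whose numbers were crossed in DND41. In CUTL1 it went from 1 to 2 with median centring, with an intensity trend and robust prior, and with the replicate block; in DND41 from 2 to 0 from the line's 4 arrays alone; in Jurkat from 0 to 1 with 1 probe set per gene and with the replicate block. The average went from 1 to 0 with a stricter filter, which does not test CDKN1A, and to 2 without DND41. The F test of the response went from 1 to 2 with the trend and with a pseudocount of 16, and that of the DMSO level from 7 to 4 with the stricter filter and with 1 probe set per gene, both of which test fewer probe sets. With 1 array left out the counts ranged from 0 to 1 in CEM, 0 to 2 in CUTL1, 1 to 3 in DND41, 0 to 2 in Jurkat, 1 to 2 on average, 1 to 2 for the response and 7 to 9 for the DMSO level. Over all probe sets the response F test called 1843, against 1148 with no filter, 2922 with the stricter one, 3268 with the trend, 2839 with the pseudocount and 751 with the block. From a line's 4 arrays alone 3250 were called in CEM, 3175 in CUTL1, 1661 in DND41 and 3119 in Jurkat, against 5855, 5805, 6655 and 5607. With the block CDKN1A was called in each line (adjusted p 0.0343 in CEM, 0.0338 in CUTL1 and 0.0296 in Jurkat). The numbers were not taken as pairs, since r was above 0.1 in 3 lines but -0.321 in DND41; the crossing and the average without DND41 were chosen after seeing the data. Over single probe sets and other settings than a left-out array, 1391 values stayed called or stayed uncalled, 30 gained a call and 26 lost one. Of values called in either setting, 0 reversed direction. A change of sign between uncalled values was counted as unchanged.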

Other observations

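The genes around CDKN2A were read in RefSeq order after the levels of KLHL9 had been seen. Of the 61 protein-coding genes from 30 before to 30 after CDKN2A, 54 had a probe set and 31 were tested, 24 of them above the threshold in all 8 groups. Of the 15 genes from KLHL9 to CAAP1, 12 had a probe set and 4 were tested: KLHL9, MTAP, CDKN2A and CAAP1. The interferon genes between KLHL9 and MTAP that had a probe set were below the threshold in every line, so the levels there do not show where the lines part.

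Other genes of this stretch were low in a single line. HACD4 lay at 3.21 in DND41 with DMSO and at 9.04 in CEM, 10.7 in CUTL1 and 8.32 in Jurkat. IFT74 lay at 2.83 in Jurkat and at 5.48 in CEM, 6.25 in CUTL1 and 6.91 in DND41. C9orf72 lay at 4.34 in CEM and at 6.78 in CUTL1, 7.11 in DND41 and 7.27 in Jurkat. PLIN2, which encodes a coat protein of lipid droplets, lay at 6.9985 in Jurkat and at 9.79 to 10.1 in the other lines. In each case genes on both sides of it were bright in that line.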
